A study of Mus musculus with 16 samples.

Results

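Collagen VI is a matrix protein, and transcripts of 4 of its chain genes, Col6a1, Col6a2, Col6a3 and Col6a5, were followed among the 15895 genes listed for lymphatic endothelial cells of the mouse heart. The set was chosen on measured values: Col6a5 stood out in the neonatal response to infarction, and the other chains were taken with it by symbol. All 4 members were in the table, and all 4 passed the filter on low values that left 13033 genes for testing. Values of the members in the neonatal comparison of infarction with sham are therefore a description here, with no test. The same holds for Col6a5 in any comparison in which a neonatal group is compared. Its adult test compares adult groups only, but the neonatal libraries enter the estimate of the spread used in that test.

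Collagen VI is secreted as a trimer of an α1, an α2 and an α3 chain, which assembles into beaded microfilaments that lie between basement membranes and the fibrillar collagen of the interstitium. The α5 and α6 chains, encoded by Col6a5 and Col6a6, resemble α3 and can take its place in the trimer. Fibroblasts and other mesenchymal cells are its main source in most tissues, and loss of the classical chains causes muscle disease in humans and mice.

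All mice were of the CD1 strain. A coronary artery was ligated to cause a myocardial infarction (MI), or the operation was a sham, on postnatal day 1 (P1) or 56 (P56), and 3 days passed before the hearts were collected. Cells without the leukocyte antigen CD45 and with CD31 and podoplanin on their surface were sorted as lymphatic endothelium, and RNA was sequenced in 4 libraries for each of the 4 groups (MI P1 with its sham P1, MI P56 with its sham P56). Neonatal ventricles were pooled by 6, cut up, digested and passed over a Percoll gradient, while the adult animals were males whose hearts were perfused with enzyme through the aorta. Age therefore cannot be told apart from digestion, sex and pooling. The labels do not say whether the libraries of a group came from separate animals or pools, so p-values measure the spread between these libraries, which may be technical. The amplification and library kits are not stated to keep strand, so reads from a gene and a gene overlapping it cannot be separated. In such bulk RNA, fewer cells of a type and less RNA per cell cannot be told apart.

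Values are read counts scaled to library size with edgeR's TMM factors (CPM), as the authors deposited them. Libraries are named by the number in the table, which runs 1, 2, 3 and 5 in each group. Total reads ran from 17103319 to 43837520 per library, but 3 libraries stood apart. Reads fell on 9451 genes in library 1 of sham P1, on 7939 in library 2 of sham P1 and on 7746 in library 5 of MI P56, against at least 14121 in each of the other 13. Transcripts of the respiratory chain gene Uqcrc1 took 98.6% of the reads of library 2 of sham P1 and 99.8% of those of library 5 of MI P56. Among the other libraries the highest share was 47.3%, in library 5 of sham P1. These 3 libraries are called shallow below only because few genes had a read, and the other 13 are called deeper. Total reads of the 3 were not low, at 25025230, 43837520 and 38575819. Outside Uqcrc1 and mitochondrial ribosomal RNA, library 1 of sham P1 had 6376296 reads, against 6709566 in the deeper library 5 of sham P1. In the 3 shallow libraries 3 reads corresponded to values of 0.359, 12.1 and 12.9, against 0.0489 to 0.109 elsewhere. The tests below use the 13 deeper libraries (4 MI P1 and 2 sham P1, 3 MI P56 and 4 sham P56), and calls that end with all 16 are named beside the result.

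The labelled cell type was checked by 10 lymphatic markers, of which 9 were listed. Their summed value was 2248 to 3247 in sham P1, 1784 to 2839 in MI P1, 1962 to 3340 in sham P56 and 1094 to 2613 in MI P56, and 0 of the 9 was called in any comparison with limma. Prox1, the transcription factor that fixes lymphatic identity, had mean values of 189 to 371 over the 4 groups. Markers of fibroblasts, which lack CD31, were also present, and all 12 listed had reads in every deeper library. Their sum was 1790 and 4057 in the deeper sham P1 libraries and 941 to 3450 in MI P1. It was 706 to 3433 in sham P56 and 2268 to 4932 in MI P56. It was above the lymphatic sum in library 5 of sham P1, libraries 1 and 2 of MI P1 and library 2 of sham P56. The same held for libraries 2 and 3 of MI P56 (4231 against 1711 and 4932 against 1094), and not for the other deeper libraries. The lymphatic identity of the libraries is thus seen alongside mesenchymal transcripts, and the cell of origin of the collagen VI reads was not measured.

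Promoter sequences are shown for the members because Col6a1, Col6a2 and Col6a3 varied together over the libraries while Col6a5 did not. Col6a1 and Col6a2 both lie on chromosome 10 (76708792 to 76726168 and 76595762 to 76623630), Col6a3 is on chromosome 1 (90765923 to 90843971) and Col6a5 on chromosome 9 (105856078 to 105960643), all on the minus strand of GRCm38. Each RefSeq entry (GRCm38.p6) runs from 250 bases before to 50 bases after a transcription start, written 5′ to 3′ on the strand of the gene, and Col6a2 has 2 entries with different starts that overlap. Capitals mark matches on either strand to 3 motifs, the GC box GGGCGG, the AP-1 site TGANTCA and the TATA box TATAAA.
Col6a1, chr10:76725995-76726294: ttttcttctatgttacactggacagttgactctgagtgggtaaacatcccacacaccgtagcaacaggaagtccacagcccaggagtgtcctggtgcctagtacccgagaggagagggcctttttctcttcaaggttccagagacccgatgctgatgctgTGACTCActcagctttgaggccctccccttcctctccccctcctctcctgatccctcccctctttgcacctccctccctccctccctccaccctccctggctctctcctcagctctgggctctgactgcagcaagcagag
Col6a2, chr10:76623355-76623654: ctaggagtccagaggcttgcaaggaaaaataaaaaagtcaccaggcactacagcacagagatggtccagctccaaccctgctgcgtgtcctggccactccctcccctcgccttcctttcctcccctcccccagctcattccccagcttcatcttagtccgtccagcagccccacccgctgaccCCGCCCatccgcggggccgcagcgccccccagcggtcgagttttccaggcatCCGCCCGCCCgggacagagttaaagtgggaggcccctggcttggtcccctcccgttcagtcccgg
Col6a2, upstream start, chr10:76623581-76623880: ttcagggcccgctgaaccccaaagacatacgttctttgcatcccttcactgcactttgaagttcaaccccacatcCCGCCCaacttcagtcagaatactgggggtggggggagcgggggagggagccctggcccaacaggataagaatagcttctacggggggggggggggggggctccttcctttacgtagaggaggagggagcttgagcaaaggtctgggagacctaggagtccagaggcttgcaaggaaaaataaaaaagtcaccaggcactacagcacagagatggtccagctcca
Col6a3, chr1:90843922-90844221: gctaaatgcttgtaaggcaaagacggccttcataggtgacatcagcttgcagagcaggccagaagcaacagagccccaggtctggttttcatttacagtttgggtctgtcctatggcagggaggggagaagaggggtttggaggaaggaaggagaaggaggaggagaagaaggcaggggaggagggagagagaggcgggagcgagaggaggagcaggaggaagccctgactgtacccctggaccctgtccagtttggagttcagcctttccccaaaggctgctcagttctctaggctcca
Col6a5, chr9:105960594-105960893: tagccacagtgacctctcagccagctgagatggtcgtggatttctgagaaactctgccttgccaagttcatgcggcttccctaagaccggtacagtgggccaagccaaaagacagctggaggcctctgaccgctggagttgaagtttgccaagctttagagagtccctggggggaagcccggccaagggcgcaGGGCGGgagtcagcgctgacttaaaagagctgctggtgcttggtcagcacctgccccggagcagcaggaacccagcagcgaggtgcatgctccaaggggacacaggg

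A GC box, which is the binding site of Sp-family factors, was matched in the Col6a5 promoter (57 bases before the start) and in both Col6a2 entries, once in one and 3 times in the other, where a pair of matches overlap. The Col6a1 promoter held 1 AP-1 match (90 bases before the start), and the Col6a3 promoter held no match to any of the 3 motifs. No TATA box was matched in the 5 entries. Among 32851 RefSeq promoters of the same length, 35.7% held the GC box, 7.81% the AP-1 site and 13.6% the TATA box. The matches are a description of these windows only.

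In the neonatal hearts Col6a5 was the chain that set the infarcted libraries apart. Its value was 6.50 in library 3 and 4.38 in library 5 of sham P1, and 21.9, 19.6, 28.8 and 40.0 in libraries 1, 2, 3 and 5 of MI P1. Every infarcted library lay above both deeper sham libraries, with means of 27.6 ± 9.15 (SD, n = 4) and 5.44 ± 1.49 (n = 2), a ratio of 5.07. Of the shallow sham libraries, library 1 had a value of 0.239 from 2 reads, and library 2 had no read, which allows a value of up to 12.1. The difference was 2.12 on the log2(value + 1) scale over the 13 libraries and 3.37 over all 16. These values chose the members and support nothing further. The share of all genes whose groups separate without overlap was not counted, here or in the comparisons below. Separation between so few libraries is therefore given as a description. The fit as a whole called 0 of 13033 genes (0%) in this comparison with limma, with 485 at an unadjusted p under 0.05; edgeR called 0 (441 unadjusted) and DESeq2 called 7 (586 unadjusted).

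The 3 classical chains did not separate the neonatal groups. Col6a1, which encodes the α1 chain, had values of 42.4 and 109 in the deeper sham P1 libraries and of 76.8, 86.7, 51.3 and 18.3 in libraries 1, 2, 3 and 5 of MI P1. Col6a2, for the α2 chain, had values of 65.9 and 161 in sham P1 and of 131, 127, 104 and 28.6 in MI P1. Col6a3, for the α3 chain, had values of 29.8 and 76.4 in sham P1 and of 65.0, 46.9, 33.7 and 18.4 in MI P1. For each of the 3 genes the groups overlapped, library 5 of sham P1 was the higher of its pair, and library 5 of MI P1 was the lowest of its group. That same library 5 of MI P1 had the highest Col6a5 of all 16 libraries.

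**Figure D1:**
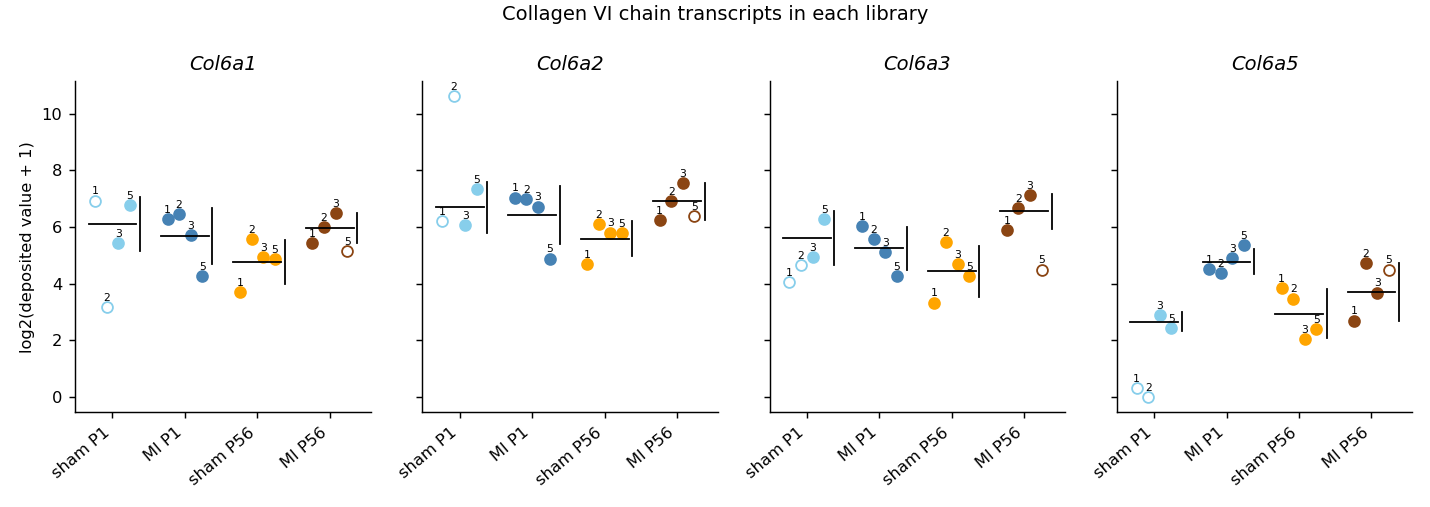
Level of each collagen VI chain gene in every library, as log2(deposited value + 1), by group; numbers name the libraries, filled points are the 13 deeper libraries, open points the 3 shallow ones, horizontal bars the mean of the filled points and vertical bars 1 SD on either side. Col6a3 is higher in the filled MI P56 points than in all sham P56 points, Col6a5 is higher in MI P1 than in sham P1, and the open Col6a2 point at 1571 in sham P1 rests on 389 reads.

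Other cell types were read beside the neonatal values. The summed value of the 12 fibroblast markers was 1790 and 4057 in the deeper sham P1 libraries and 941 to 3450 in MI P1, and it was lowest in library 5 of MI P1, where Col6a5 was highest. Without Col1a1 and Col1a2 the sum was 689 and 1613 in sham P1 and 269 to 732 in MI P1, with overlap. On the log2(value + 1) scale 2 of the 12 had a positive difference, the median was -1.03, and 0 were called. Mesothelial markers (7 of 7 listed), which mark the epicardial surface, summed to 42.1 and 24.9 in sham P1 and to 93.0, 82.9, 81.6 and 52.1 in MI P1, with no overlap and no marker at 0 in these libraries. Library 1 of sham P1, with 0.239 for Col6a5, had a mesothelial sum of 93.6, with Krt8 at 0. Macrophage markers (6 of 7 listed) summed to 15.9 to 17.4 in sham P1 and 7.70 to 28.0 in MI P1, with no marker at 0 in the deeper libraries. Blood endothelial markers (8 of 8 listed) summed to 227 and 185 in the deeper sham P1 libraries and to 367, 266, 292 and 273 in MI P1. There was again no overlap and none at 0, and all 8 had a positive difference with a median of 0.64. Of the 8, Vwf (2.44) and Flt1 (1.52) differed most on the log2(value + 1) scale, and neither was called. The shallow sham libraries 1 and 2 had blood endothelial sums of 638 and 456, above all of MI P1. The part of these cells in the Col6a5 values was not tested.

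In the adult hearts Col6a3, for the α3 chain, was the only member called after MI. The chains were not tested against each other. Col6a3 had values of 9.12, 43.7, 24.8 and 18.1 in libraries 1, 2, 3 and 5 of sham P56 and of 58.1, 100 and 138 in libraries 1, 2 and 3 of MI P56. All 3 infarcted libraries lay above all 4 sham libraries, with means of 98.9 ± 40.1 (SD, n = 3) and 23.9 ± 14.7 (n = 4), a ratio of 4.13. The difference was 2.11 ± 0.46 (SE) on the log2(value + 1) scale, with an adjusted p of 0.0125 (limma, two-sided, Benjamini-Hochberg over 13033 genes). In the same comparison limma called 446 genes (3.42%), 2.36% higher and 1.07% lower, and the median change of all genes was 0.0078. The call rests on the libraries used: without library 3 of MI P56 the Col6a3 difference was 1.83 with an adjusted p of 0.107 and 143 genes were called in all. With all 16 libraries it was 1.60 with an adjusted p of 0.452, and 23 genes were called. The added library 5 of MI P56 had a Col6a3 value of 21.6 from 5 reads.

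Col6a2 and Col6a1 were also higher in the infarcted adult libraries on average, without passing the test. Col6a2 had values of 24.7, 67.4, 54.8 and 53.8 in sham P56 and of 75.5, 121 and 187 in libraries 1, 2 and 3 of MI P56, so the groups did not overlap. The Col6a2 difference was 1.32 ± 0.46 on the log2 scale, with an adjusted p of 0.128 (limma). It passed the threshold with DESeq2 (1.33, adjusted p = 0.0482) and in limma without library 5 of MI P1 (1.32, adjusted p = 0.0447), a library outside this comparison that enters the shared estimate of the spread. Col6a1 had values of 12.1, 46.5, 29.9 and 28.5 in sham P56 and of 41.9, 63.4 and 88.6 in MI P56. The groups overlapped only by library 2 of sham P56, and the difference was 1.19 ± 0.47 with an adjusted p of 0.185 (limma).

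Col6a5 did not repeat its neonatal separation in the adult hearts. Its value was 13.4, 10.1, 3.13 and 4.27 in libraries 1, 2, 3 and 5 of sham P56, and 5.51, 25.5 and 11.9 in libraries 1, 2 and 3 of MI P56. The groups overlapped, and the difference was 0.76 ± 0.45 on the log2 scale with an adjusted p of 0.405 (limma). This neither shows a change nor shows that there was none, and the difference between the neonatal and the adult response was not tested, since the neonatal values chose the gene. Library 5 of MI P56, left out of this fit, had a Col6a5 value of 21.6 from 5 reads.

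Between ages the classical chains were lower in adult than in neonatal sham libraries on average, and no member passed the test. The P56 minus P1 difference in sham was -1.33 ± 0.53 for Col6a1 (adjusted p = 0.111), -1.11 ± 0.52 for Col6a2 (0.179) and -1.17 ± 0.52 for Col6a3 (0.153, all limma), with overlapping groups for each gene. Among all genes limma called 13.2% in this comparison, 5.89% higher and 7.28% lower at P56. The sham P1 group has 2 libraries here, and leaving out library 3 or library 5 of it took the genes called from 1716 to 804 or 644, with the lone library then assumed to vary like the other groups. Without library 2 of sham P56, the highest of its group for these 3 chains, Col6a1 (-1.60, adjusted p = 0.0400) and Col6a3 (-1.51, adjusted p = 0.0327) passed in limma. With all 16 libraries 518 genes were called and none of the 3 chains. Cell type lists also differed between ages in sham. Limma called all 6 cardiomyocyte markers (median 3.04) and 6 of 8 blood endothelial markers (median 2.21) higher at P56, and 5 and 3 with all 16 libraries. Of the 12 fibroblast markers 2 were called higher and 2 lower, 5 had a positive difference, and the median was -0.59. The part of these shifts in the chain values was not tested.

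After MI the order of the ages was the other way round for Col6a3. Its mean was 41.0 ± 19.8 (SD, n = 4) at P1 and 98.9 ± 40.1 (n = 3) at P56, with 1 neonatal library, library 1 at 65.0, above the lowest adult library. The difference was 1.30 ± 0.46 with an adjusted p of 0.112 (limma), and it passed without library 2 of sham P56 (adjusted p = 0.0425) and when only the MI libraries were fitted (adjusted p = 0.0260). Col6a1 differed by 0.29 ± 0.47 (adjusted p = 0.816) and Col6a2 by 0.50 ± 0.46 (adjusted p = 0.636, limma). Col6a5 went from 27.6 ± 9.15 at P1 to 14.3 ± 10.2 at P56, with overlapping ranges and no test. Of the 12 fibroblast markers 11 had a positive difference between ages after MI, with a median of 1.07. Limma called 3 of them higher and 0 lower, and 0 with all 16 libraries. Of the 6 mesothelial markers tested 0 had a positive difference, with a median of -1.40 and 1 called lower. The part of these shifts in the chain values was not tested. Limma called 5.35% of genes here, 2.09% higher and 3.26% lower at P56. That count, 697 genes, became 464 without library 5 of MI P1, 449 and 317 without library 1 and library 2 of MI P56, 1344 without library 2 of sham P56 and 14 with all 16 libraries.

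Col6a6, the remaining α3-like chain in the table, lies near Col6a5 on chromosome 9 (105687809 to 105828160) and was added after the table was seen. Its value was 33.5 and 57.3 in sham P1, 63.7, 52.5, 58.0 and 31.2 in MI P1, 17.6, 58.6, 12.3 and 20.3 in sham P56, and 7.76, 19.1 and 16.8 in MI P56. After MI every adult library lay below every neonatal one. The difference was -1.79 ± 0.41 with an adjusted p of 0.0133 (limma); it was -1.42 (0.0893) without library 1 of MI P56 and -1.94 (0.400) with all 16 libraries. MI against sham at P56 gave -0.69 ± 0.41 (adjusted p = 0.406, limma), so Col6a6 and Col6a3 had opposite signs in that comparison, with only the latter called. Gm38314 overlaps Col6a6 and Gm36970 overlaps Col6a3, and their reads may be mixed.

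Levels were compared between chains after division by the length of the longest coding transcript (GENCODE M21), 4100 bases for Col6a1, 4653 for Col6a2, 10106 for Col6a3, 9289 for Col6a5 and 8781 for Col6a6. On this per-kilobase scale Col6a2 was 1.28 to 1.86 times Col6a1 in the 13 libraries, but 0.989 to 1.44 times with the union of exons as length, and the pair had the highest mean levels in each group. In MI P1 the levels per kilobase were 21.0 ± 10.2 for Col6a2, 14.2 ± 7.45 for Col6a1, 5.85 ± 1.61 for Col6a6, 4.06 ± 1.96 for Col6a3 and 2.97 ± 0.985 for Col6a5 (SD, n = 4). The ranges of neighbours in that order overlapped. In MI P56 they were 27.4 ± 12.1, 15.8 ± 5.71, 1.66 ± 0.683, 9.79 ± 3.97 and 1.54 ± 1.10 in the same order of genes (n = 3), so that every Col6a3 level was above every Col6a6 and Col6a5 level, while the ranges of the latter pair overlapped.

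The ratio of Col6a3 to Col6a1, which does not depend on the scaling of a library, was higher in the infarcted adult hearts than in the other 3 groups. Per kilobase it was 0.563, 0.642 and 0.633 in libraries 1, 2 and 3 of MI P56. It was 0.305, 0.381, 0.337 and 0.258 in sham P56, 0.343, 0.219, 0.267 and 0.408 in MI P1, and 0.285 and 0.284 in sham P1. Each MI P56 library lay above all 10 others. With the union of exons in place of the longest transcript, an alternative added after the data were seen, the ratio was 0.525 to 0.597 in MI P56 and 0.204 to 0.380 elsewhere. The ratios are given with no test. Library 5 of MI P56, on 8 reads of Col6a1 and 5 of Col6a3, had a ratio of 0.254.

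For Col6a3 and the α3-like chains followed here, Col6a5 and Col6a6, the make-up is given per library, with no test. No other chain enters the sum. Col6a3 was 79.6%, 66.8% and 81.1% of the summed per-kilobase level of Col6a3, Col6a5 and Col6a6 in MI P56, and 18.8% to 58.6% in the other 10 libraries. Col6a5 was 14.7%, 16.6%, 23.8% and 44.5% of that sum in MI P1 and 9.37% and 3.24% in sham P1. These neonatal shares restate the Col6a5 values that chose the members, so they are no further result. The Col6a5 share was 33.2%, 9.03%, 8.03% and 10.1% in sham P56 and 8.20%, 18.5% and 7.56% in MI P56. Library 5 of MI P1 and library 1 of sham P56, with the highest Col6a5 shares, had Col6a3 values of 18.4 and 9.12, at the low end of the 13 libraries beside library 5 of sham P56 at 18.1. Shares add up to a whole, so a high share of one chain and a low share of another are not separate results.

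**Figure D2:**
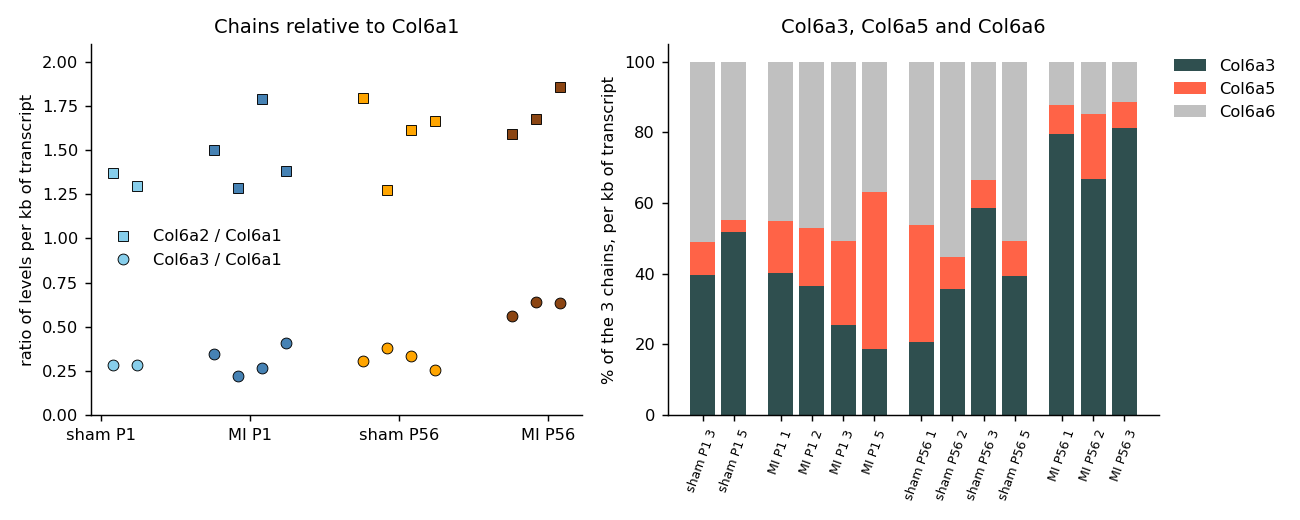
Left, ratio of Col6a2 (squares) and Col6a3 (circles) to Col6a1 per kilobase of transcript in each of the 13 deeper libraries by group; right, percentage of Col6a3, Col6a5 and Col6a6 in their summed level per kilobase, with 1 bar per library. The Col6a3 ratio is 0.563 to 0.642 in MI P56 and 0.219 to 0.408 in the other groups, and Col6a3 takes 66.8% to 81.1% of the bar in MI P56.

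Fibroblast markers were set beside the adult result for the whole list. Of the 12, limma called Col1a1, Col1a2 and Mfap5 higher and none lower in MI P56, beside 2.36% of all genes called higher; 9 of the 12 had a positive difference, the median was 0.57, and none was at 0 in the deeper libraries. The call of Mfap5, a microfibril protein, ended with all 16 libraries (1.21, adjusted p = 0.696, limma) and without library 1 or library 5 of sham P56 or any 1 library of MI P56 (adjusted p = 0.0523 to 0.174), whereas the calls of Col1a1 and Col1a2 held. The sum of the 12 was 706 to 3433 in sham P56 and 2268 to 4932 in MI P56. It was thus higher on average in the same libraries as Col6a3, with overlap. Without Col1a1 and Col1a2 the sum was 533 to 2777 in sham P56 (mean 1505) and 878 to 1647 in MI P56 (mean 1294). That shorter sum was lower on average in MI P56, again with overlap. As a percentage of the sum of all 12, with Col1a1 and Col1a2, Col6a3 was 1.27% to 1.32% in the 4 sham P56 libraries. It was 2.37% to 2.80% in the 3 MI P56 libraries, with no overlap. It was 1.36% to 2.18% in MI P1 and 1.67% to 1.88% in sham P1. The other members overlapped at P56 on this scale. Col6a1 was 1.36% to 2.07% of the sum in sham P56 and 1.50% to 1.85% in MI P56, Col6a2 was 1.96% to 3.91% and 2.85% to 3.79%, and Col6a5 was 0.163% to 1.90% and 0.240% to 0.603%. These percentages are a description with no test, and the part of the fibroblast transcripts in the Col6a3 result was not tested.

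Other lists were also read in the adult comparison in the 13 libraries. Of the 9 lymphatic markers tested limma called 0, and 1 had a positive difference, with a median of -0.33. Their sum was 1962 to 3340 in sham P56 and 2613, 1711 and 1094 in libraries 1, 2 and 3 of MI P56. Of 6 macrophage markers listed, 4 were tested and limma called Cd68 higher; their sum was 5.72 to 9.57 in sham P56, where Adgre1 was at 0 in library 2, and 13.5 to 73.0 in MI P56. Limma called all 6 cardiomyocyte markers lower, beside 1.07% of all genes, with sums of 1242 to 2273 in sham P56 and 313 to 557 in MI P56. All 8 blood endothelial markers had a negative difference and 4 were called lower, with sums of 618 to 1000.2 and 235 to 475. Among 9 pericyte and smooth muscle markers Acta2 was called higher and Rgs5 and Abcc9 lower. These calls depend on the libraries: with all 16, 1 cardiomyocyte marker (Mb) was called and none of the macrophage, blood endothelial or pericyte markers. Without library 3 of MI P56 the calls were 3 cardiomyocyte markers, 2 blood endothelial markers and Abcc9, without Acta2 or Rgs5. Rgs5 was also not called without library 1 of MI P56 or library 5 of sham P56, and 2 blood endothelial markers were called without either of these, without library 2 of sham P56 or without library 3 of MI P1. Leaving out library 1 of MI P56 or library 3 of MI P1 gave 2 macrophage markers called. The part of these shifts in the collagen VI values was not tested.

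**Figure D3:**
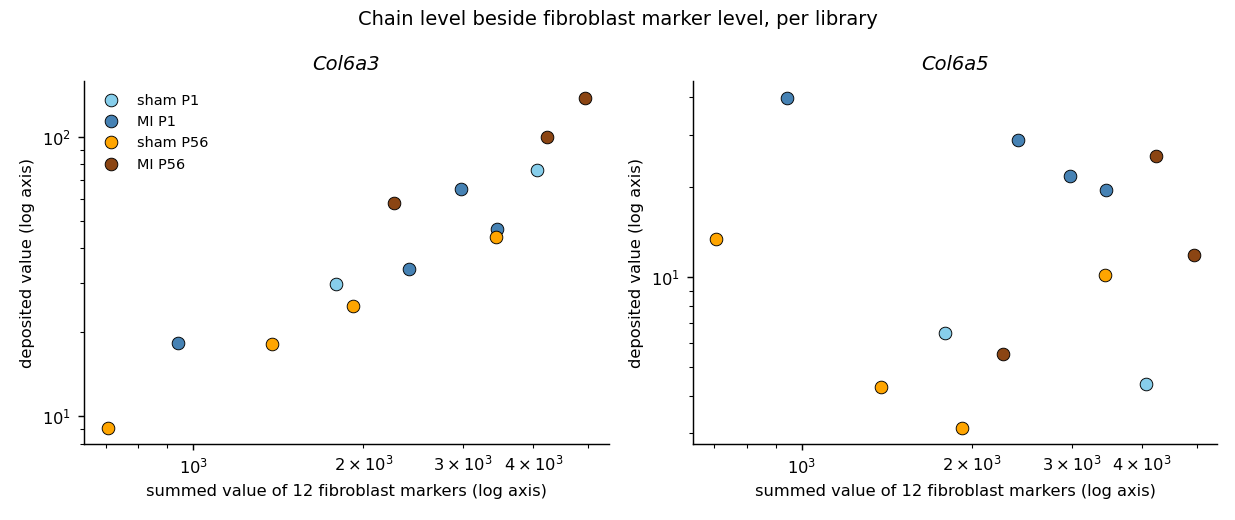
Deposited value of Col6a3 (left) and Col6a5 (right) against the summed value of 12 fibroblast markers in the 13 deeper libraries, both on log axes, coloured by group. Col6a3 is 1.27% to 1.32% of the marker sum in sham P56 and 2.37% to 2.80% in MI P56; the MI P1 library with the lowest marker sum, 941, has the highest Col6a5.

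Genes around collagen VI were taken from 3 lists: its cell-surface receptors, its binding partners in the matrix, and the enzymes, chaperones and proteases that make and process collagen chains. Among 12 receptors, limma called 1 higher and 0 lower in MI against sham at P56, beside 2.36% higher and 1.07% lower among all genes, with a median change of 0.15. That gene was Itga5, the α5 subunit of the fibronectin receptor, with values of 18.8 to 27.9 in sham P56 and 57.5 to 74.8 in MI P56 (1.41 ± 0.26, adjusted p = 0.00372). Its call was lost with all 16 libraries (0.94, adjusted p = 0.728), and without library 2 of sham P56 2 receptors were called. Itgb1, the shared β1 integrin subunit, had values of 141 to 145 and 134 to 166 (0.10 ± 0.19, adjusted p = 0.839), and Itgav, the αv subunit, differed by 0.60 ± 0.18 (adjusted p = 0.0750, limma).

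Of 25 binding partners listed, 23 were in the table, and limma called 8 higher and 0 lower in MI P56, beside 2.36% of all genes called higher, with a median change of 0.82. They were the fibrillar collagens Col1a1 (3.38), Col1a2 (2.45), Col3a1 (2.37), Col5a1 (2.36) and Col5a2 (1.98), fibronectin Fn1 (2.69), the microfibril protein Mfap5 (1.69) and fibulin-2, Fbln2. Fn1, a glycoprotein that links collagens to integrins, was 86.0 to 168 in sham P56 and 482 to 1347 in MI P56 (2.69 ± 0.32, adjusted p = 8.27e-05, limma). Col1a1, Col1a2 and Mfap5 are also on the fibroblast list. The small proteoglycans that bind collagen VI were not called: biglycan, Bgn, had values of 175 to 940 and 1006 to 1755 (1.58 ± 0.50, adjusted p = 0.0871, limma). Without library 3 of MI P56 5 partners were called and Col5a1 was not among them (adjusted p = 0.05003), and with all 16 libraries 3 were called (Col1a1, Col1a2 and Fn1). Fbln2 lost its call without library 1 (adjusted p = 0.0530) or library 3 (0.171) of MI P56 and without library 5 of sham P56 (0.0505, limma).

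Of the 29 genes of collagen chain processing limma called 9 higher and 0 lower at P56, beside the same 2.36% of all genes, with a median change of 0.83. P4ha3, a catalytic subunit of prolyl 4-hydroxylase, was listed at 0 to 1.12 in sham P56 and at 12.4 to 17.9 in MI P56 (3.54 ± 0.42, adjusted p = 8.27e-05). The prolyl 3-hydroxylase P3h1 (2.24), the collagen chaperone Serpinh1 (1.67), the lysyl hydroxylase Plod2 (1.63), the immunophilin Fkbp10 (1.44) and the β subunit P4hb (1.42) were called with it. Sec31a, a coat protein of export vesicles (0.67), and Mmp14, a membrane-bound protease (0.73), were the most abundant members not called. Without library 3 of MI P56 3 of the 29 were called, and P3h1 (adjusted p = 0.0913), Serpinh1 (0.115) and Fkbp10 (0.231) were not; Fkbp10 was also lost without library 5 of sham P56 (0.0560, limma). With only the sham P56 and MI P56 libraries fitted 4 were called, without P3h1 (0.0565), Serpinh1 (0.0548) or Fkbp10 (0.120). The replicate number as a block also ended the call of Fkbp10 (1.44, 0.0635), and edgeR that of P3h1 (0.0540). With all 16 libraries 1 was called, P4ha3.

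**Figure D4:**
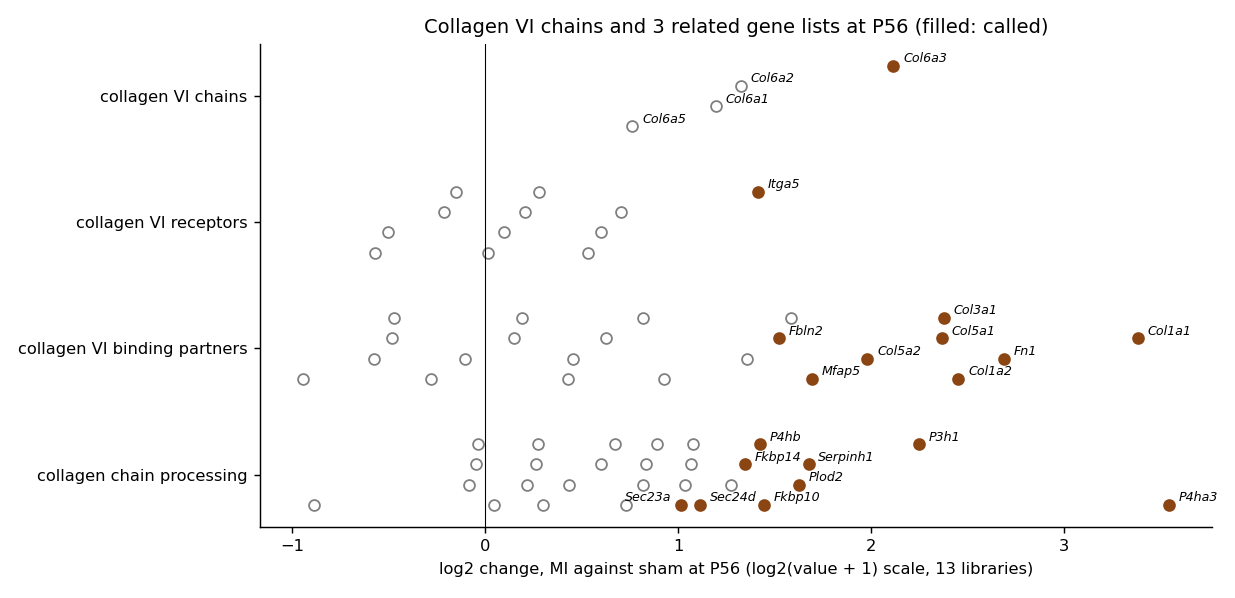
Change of the 4 collagen VI chains and of the genes of 3 related lists in MI against sham at P56, on the log2(value + 1) scale over 13 libraries; filled points passed an adjusted p of 0.05 in limma. Col6a3 is filled at 2.11, Itga5 is the filled receptor at 1.41, and the filled points of the other lists all lie to the right of 0.

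Between ages in sham the lists were called in both directions, beside 7.28% of all genes called lower and 5.89% higher at P56. Limma called 2 receptors lower and 1 higher, 3 processing genes lower and 0 higher, and 8 of 23 binding partners lower and 3 higher. Fn1 (-2.80), Col1a1 (-2.93), Col3a1 (-2.08) and Col5a1 (-2.07) were among the partners called lower, and Vwa1, a partner in the basement membrane zone (1.63), among those called higher. Without library 5 of sham P1 Fn1 stayed called, while Col1a1 (adjusted p = 0.0847), Col3a1 (0.111) and Col5a1 (0.231) did not; Vwa1 was not called without either sham P1 library or without library 3 of sham P56 (0.0573, limma). The partners called lower and higher were 7 and 0 without library 3 of sham P1, 2 and 1 without library 5 of sham P1, 8 and 1 without library 3 of sham P56, and 2 and 0 with all 16 libraries. Leaving out either sham P1 library left 0 receptors and 1 processing gene called, and with all 16 libraries 2 receptors were called higher and 0 processing genes in either direction. Without library 2 of sham P56 6 processing genes were called lower. After MI limma called 1 receptor, 3 partners and 2 processing genes higher and 2 partners lower at P56, beside 2.09% and 3.26% of all genes, and with all 16 libraries none. The receptor, Itga11, was not called in 8 of the 13 fits without 1 library, and no processing gene and no partner called lower remained without library 1 or library 2 of MI P56. At P1 limma called 0 genes of the 3 lists in MI against sham, as it called 0 of all genes.

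Over the 13 libraries the classical chains followed each other. Pearson's r of log2(value + 1) was 0.978 between Col6a1 and Col6a2, 0.887 between Col6a1 and Col6a3 and 0.907 between Col6a2 and Col6a3. Between Col6a5 and the classical chains it was -0.01, 0.01 and 0.06. The genes most like each member, among 6088 with a mean of at least 5, were Col5a1 (0.917), Antxr1 (0.916), Gpc6 (0.912), Pcdh18 (0.910) and Lamc1 (0.908) for Col6a1. For Col6a2 they were Lamc1 (0.927), St5 (0.921), Mfap4 (0.921), Fat1 (0.921) and Bicc1 (0.917). For Col6a3 they were Vcan (0.956), Fbn1 (0.955), Fat1 (0.946), Bmp1 (0.945) and Loxl1 (0.943). Col6a5 had weaker likeness to any gene, with Dock5 (0.797), Jak2 (0.790), Nipa2 (0.790), Prickle1 (0.762) and Glg1 (0.756) nearest. The points share the libraries, their scaling and the 4 groups, so these values describe the 13 libraries and carry no p.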

How the data were processed

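The members, lists and tests were chosen with earlier results of these data known. Trimmomatic, HTSeq, STAR and edgeR are named with mm10 (GRCm38) per the submitters' processing notes; roles and versions are not given in the sources used here. The deposited signal per gene, which the authors named CPM, was in whole reads times 1 constant per library (100% of values, tolerance 0.01 read) and equalled edgeR CPM with TMM factors (0.00565 to 3.36) to within 2.78e-06%. Limits from 3 reads cover counting error only. Columns numbered 5 have no label of that number, so the column name gave their group. The highest correlation between 2 libraries was 0.9698, and none was treated as a duplicate.

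Genes reaching a value of 1 in 4 or more libraries entered limma-trend (limma 3.58.1, R 4.3.3) on log2(value + 1), which understates changes of low genes, over the 13 libraries with a read on at least 10000 genes. The call was an adjusted p under 0.05 (Benjamini-Hochberg, all genes, two-sided). Alternatives were all 16 libraries, DESeq2 1.42.0 and edgeR's quasi-likelihood test (4.0.16) on recovered reads, pseudocounts of 0.25 and 4, a filter at 5 or none, median-of-ratios rescaling, the compared groups alone, a replicate block and leaving out each library. The edgeR test called 341 genes for MI against sham at P56. Fits were tested on simulated data. Named genes were the members; per list up to 6 called at P56 by size and 2 uncalled with the highest mean; marker genes called or with the 2 highest means; and the 5 genes most correlated with each member, without predicted genes. Not all are written out. Col6a6, Prox1, Vwf, Flt1, Mfap5 among the partners, Fbln2 and the list genes named between ages were added after their values were seen.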

Additional observations from a re-analysis of the deposited data

Results flagged for a closer look

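Col6a2 in library 2 of sham P1 had a value of 1571, far from the other libraries of its group, which had 72.4, 65.9 and 161 (the gap to the nearest was 0.937 of the range). It rests on 389 reads in a library where Col6a1 had 2 reads and Col6a3 had 6, and where Uqcrc1 took 98.6% of reads. The library is not among the 13 tested. The limit used for such gaps is passed by chance in about 1 in 20 groups.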

How the results depend on the processing

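With all 16 libraries, genes called fell from 446 to 23 for MI against sham at P56, from 1716 to 518 for age in sham and from 697 to 14 for age after MI, and Col6a3 at P56 was 1.60 (adjusted p = 0.452, limma); the cause was not tested. With only the libraries of the 2 groups compared the counts were 153, 728 and 1136, and Col6a3 after MI between ages passed (1.30, adjusted p = 0.0260). DESeq2 called 866 genes at P56 and Col6a2 passed (1.33, adjusted p = 0.0482). Leaving out each of the 13 libraries gave 143 to 645 genes at P56, 644 to 2270 for age in sham and 317 to 1344 for age after MI. Over the same fits the adult MI difference was 1.00 to 1.65 for Col6a2, 1.75 to 2.46 for Col6a3, 0.84 to 1.47 for Col6a1 and 0.25 to 1.26 for Col6a5. Between ages it was -2.01 to -0.66 for Col6a1 and -1.83 to -0.50 for Col6a3 in sham, and 0.98 to 1.64 for Col6a3 after MI. Of 130 such member values 125 stayed on their side of the threshold, as did 97 of 100 under the other alternatives, and 0 called values changed sign. Col6a3 at P56 was the only member called in the main fit. Most of these values were thus uncalled ones that stayed uncalled, which says little about stability. The Col6a3 call itself was lost without library 3 of MI P56 and with all 16 libraries. Col6a1 and Col6a2 after MI between ages, not called, crossed 0 in some fits (-0.18 to 0.57 and -0.01 to 0.83). The same numbers in different groups do not pair libraries: correlations of same-numbered libraries ran from -0.32 to 0.135. With the replicate number as a block, Col6a3 at P56 was 2.05 (adjusted p = 0.0219), 331, 1215 and 551 genes were called, and no member gained or lost a call. Of the 18 genes of the 3 lists called at P56, 9 kept the call without any 1 library and 4 were called with all 16. A read was worth 4.04 in library 2 of sham P1 and 4.31 in library 5 of MI P56, which limits what these show of Col6a5. In library 1 of sham P1 a read was worth 0.120, and Col6a5 had 2 reads beside 1015 of Col6a1.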
